A study of Mus musculus with 4 samples.

Results

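The nuclear-encoded genes of the mitochondrial respiratory chain were examined in mouse embryonic fibroblasts (MEF). Members were the protein-coding genes whose symbol in the mm10 annotation starts with Ndufa, Ndufb, Ndufc, Ndufs, Ndufv, Uqcr, Cox4, Cox5, Cox6, Cox7, Cox8 or Atp5, without the Ndufaf assembly factors. The rule found 82 member genes with 81 symbols among 20815 protein-coding genes that had a transcript in the table, since Atp5o has 2 gene identifiers. The level of a gene was taken from its longest annotated gene body as RPKM, reads per kilobase of transcript normalized to all mapped reads of the library.

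The study compared 4 libraries of total RNA, 1 for each combination of genotype and treatment. MEF had been isolated from wild type (Hmga2+/+) and Hmga2-deficient (Hmga2-/-, spelled Hmga-/- in part of the labels) C57BL/6 embryos and immortalized with SV40, so all groups share the immortalization and the low serum in which cells were held before treatment. Cells were kept for 24 h with water (Ctrl) or with recombinant human TGFB1 at 10 ng/ml. TGFB1 is a growth factor that turns fibroblasts into matrix-producing cells. Whether the lines of a genotype came from 1 or several embryos, and whether RNA from the stated duplicates was pooled, was not given in the sources used here. With 1 library per condition there is no replicate check and no test was run. The intervals below are exact 95% intervals for the ratio of reads in 2 libraries. They compare those libraries, not the conditions, and cover counting error only.

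The libraries held between 56140000 and 57300000 mapped reads, as recovered from the lowest RPKM values. Hmga2 was listed at 14.8 RPKM in Hmga2+/+ Ctrl and 40.7 RPKM in Hmga2+/+ TGFB1, and at 0 in both Hmga2-/- libraries. The TGFB1 target Ccn2 was at 13.2 and 173 RPKM in the Hmga2+/+ Ctrl and TGFB1 libraries, and at 24.9 and 359 RPKM in the Hmga2-/- ones. The 7 fibroblast markers were all above 1 RPKM and summed to between 1849 and 2236 RPKM, of which Vim alone made up 958 to 1497 RPKM. They did not move together: with TGFB1, Dcn and Col3a1 were lower in both genotypes. Col1a1, Pdgfrb and Thy1 were higher in both, and Vim and Col1a2 differed in direction between genotypes. All 3 epithelial markers, all 7 muscle markers and both erythroid markers stayed under 1 RPKM in every library, and 4 of the muscle markers were at 0 throughout. Of 3 endothelial markers 1 passed 1 RPKM, and the list summed to 1.14, 4.53, 1.47 and 7.46 RPKM in Hmga2+/+ Ctrl, Hmga2+/+ TGFB1, Hmga2-/- Ctrl and Hmga2-/- TGFB1. The neural list also had 1 of 3 markers above 1 RPKM and summed to 0.931, 2.87, 0.975 and 4.40 RPKM in the same order. Both sums were higher in the TGFB1 libraries, but each was almost all 1 gene. Kdr was at 1.11 to 7.39 RPKM and Tubb3 at 0.913 to 4.37 RPKM. The other markers of these lists (Pecam1, Cdh5, Sox10 and Elavl3) stayed under 0.1 RPKM. The leukocyte list, with 1 of 3 markers above 1 RPKM, summed to between 1.26 and 1.63 RPKM. The part of other cells in the results below was not tested. In bulk RNA, fewer cells of a type and less RNA per cell cannot be told apart.

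Respiratory complexes in the inner mitochondrial membrane pass electrons from NADH and succinate to oxygen and pump protons, and ATP synthase uses the proton gradient to make ATP. Complex I takes electrons from NADH, complex III passes them from ubiquinol to cytochrome c, and complex IV passes them to oxygen. ATP synthase is called complex V. A few catalytic subunits are encoded in mitochondrial DNA. The others are nuclear genes, most of them for small accessory (supernumerary) subunits, whose proteins are imported and assembled with the mitochondrial ones. Several complex IV subunits and the ATP synthase c ring are each encoded by several genes with tissue-restricted expression.

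The promoters of such genes are known to hold sites of the transcription factors NRF1, GABP and YY1. Windows from 250 bases before to 50 bases after the transcription start (RefSeq, GRCm38.p6) were matched to 66 of the 81 symbols, 2 of them through a synonym. On either strand, the NRF1 letters GCATGCGC stood in 9 of 66 members (13.6%), beside 3.94% of 17492 protein-coding genes and 6.49% of 8623 with at least 1 RPKM. The YY1 letters AAGATGGC stood in 10 members (15.2%), beside 3.57% of all and 5.71% of these expressed genes. The GABP letters CCGGAAG stood in 14 members (21.2%), beside 12.9% of all and 21.9% of expressed genes. The share for GABP was thus near that of expressed genes, while the shares for NRF1 and YY1 were higher. These are counts of letters and not of bound sites. The 3 strings were searched separately, so a gene can count under several.

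The NRF1 letters are shown first, because their members include Atp5g2 and Atp5k, which stand at the low end of a TGFB1 comparison below. Each line is the gene's own strand, 5′ to 3′, with up to 20 bases on each side of the match nearest the start and with the match in capitals.
Atp5g2 (chr15:102671060-102671107, minus strand): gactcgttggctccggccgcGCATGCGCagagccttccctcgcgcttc
Atp5k (chr5:108434420-108434467, minus strand): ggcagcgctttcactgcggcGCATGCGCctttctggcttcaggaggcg
Ndufa6 (chr15:82354347-82354394, minus strand): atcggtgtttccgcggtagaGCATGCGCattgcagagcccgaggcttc
Ndufa11 (chr17:56717684-56717731, plus strand): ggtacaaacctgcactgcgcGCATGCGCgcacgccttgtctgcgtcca
Cox6a1 (chr5:115349091-115349138, minus strand): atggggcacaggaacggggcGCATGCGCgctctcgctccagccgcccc
Uqcr11 (chr10:80406798-80406845, minus strand): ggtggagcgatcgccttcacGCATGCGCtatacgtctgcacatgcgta
Ndufa8 (chr2:36049319-36049366, minus strand): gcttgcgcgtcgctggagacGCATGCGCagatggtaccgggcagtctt
Uqcrc1 (chr9:108936658-108936697, plus strand): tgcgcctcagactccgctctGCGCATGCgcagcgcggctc
The ninth NRF1 member was Atp5l. The first base of the match lay from 240 bases before to 31 bases after the start, and 5 of the 9 matches began no more than 50 bases before the start or after it.

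The YY1 letters lay closer to the start. In 8 of the 10 members the match began after the start, at most 39 bases into the transcript, and in 9 of 10 it read forward on the gene's strand. The letters contain ATG.
Ndufa3 (chr7:3617375-3617422, plus strand): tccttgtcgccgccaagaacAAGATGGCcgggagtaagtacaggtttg
Ndufa9 (chr6:126849095-126849135, minus strand): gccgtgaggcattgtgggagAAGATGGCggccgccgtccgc
Ndufb8 (chr19:44555393-44555424, minus strand): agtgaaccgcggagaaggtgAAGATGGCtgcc
Ndufc1 (chr3:51408906-51408953, minus strand): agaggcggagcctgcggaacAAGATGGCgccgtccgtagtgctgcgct
Ndufs4 (chr13:114388045-114388079, minus strand): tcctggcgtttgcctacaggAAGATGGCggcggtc
Ndufs6 (chr13:73328433-73328469, minus strand): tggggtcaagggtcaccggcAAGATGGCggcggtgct
Ndufs7 (chr10:80249453-80249498, plus strand): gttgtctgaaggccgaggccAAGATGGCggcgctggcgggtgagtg
Atp5j2 (chr5:145191492-145191538, minus strand): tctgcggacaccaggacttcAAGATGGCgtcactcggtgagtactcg
Atp5j (chr16:84835037-84835084, minus strand): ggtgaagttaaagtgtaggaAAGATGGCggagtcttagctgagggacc
Atp5f1 (chr3:105959239-105959286, minus strand): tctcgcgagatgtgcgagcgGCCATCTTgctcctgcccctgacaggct
The 10 YY1 members had a median log2 ratio of TGFB1 to Ctrl of -0.30 in Hmga2+/+ and -0.21 in Hmga2-/-, beside -0.12 and -0.09 in the 53 expressed members with a window and no YY1 letters. For the 9 NRF1 members the medians were -0.17 and -0.04, beside -0.16 and -0.13 in the 54 without. For the 14 GABP members they were -0.14 and -0.18, beside -0.17 and -0.09 in the 49 without.

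Of the 82 members, 74 were at 1 RPKM or more in at least 1 library and 73 in all 4. The median of their mean level was 20.7 RPKM, beside 7.17 RPKM for the 10742 protein-coding genes at 1 RPKM or more. Summed over all members, the level was 2201 RPKM in Hmga2+/+ Ctrl, 2062 in Hmga2+/+ TGFB1, 2408 in Hmga2-/- Ctrl and 2253 in Hmga2-/- TGFB1. The sum was thus lower with TGFB1 in both genotypes, by 0.09 and 0.10 on the log2 scale, and higher in Hmga2-/- under both treatments, by 0.13 and 0.13. Over all protein-coding genes the sums were 164516, 177384, 169207 and 188250 RPKM in the same order of libraries. These were higher with TGFB1 and also higher in Hmga2-/-. A large part of the members' difference between the Ctrl libraries lay in Atp5b (228 and 280 RPKM) and Cox6c (196 and 257 RPKM).

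The order of levels was led by Atp5b, the catalytic beta subunit of ATP synthase, with 228 RPKM in Hmga2+/+ Ctrl, 291 in Hmga2+/+ TGFB1, 280 in Hmga2-/- Ctrl and 321 in Hmga2-/- TGFB1. Cox6c, a small complex IV subunit, was at 196, 166, 257 and 167 RPKM in the same order of libraries. Atp5b was above Cox6c in every library. Uqcrb, which lies at the ubiquinone-binding part of complex III, came next with 87.2 to 109 RPKM, followed by Atp5a1, the alpha subunit, with 78.7 to 85.2 RPKM. Ranked by the mean over libraries, Atp5j (coupling factor 6), Cox4i1, Ndufc1, Cox7b and Ndufa5 were also among the first 10. Their ranges were 49.5 to 75.5, 52.6 to 57.3, 44.5 to 63.1, 44.4 to 53.3 and 37.6 to 54.4 RPKM, and the ranges of these neighbours overlapped.

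**Figure D1:**
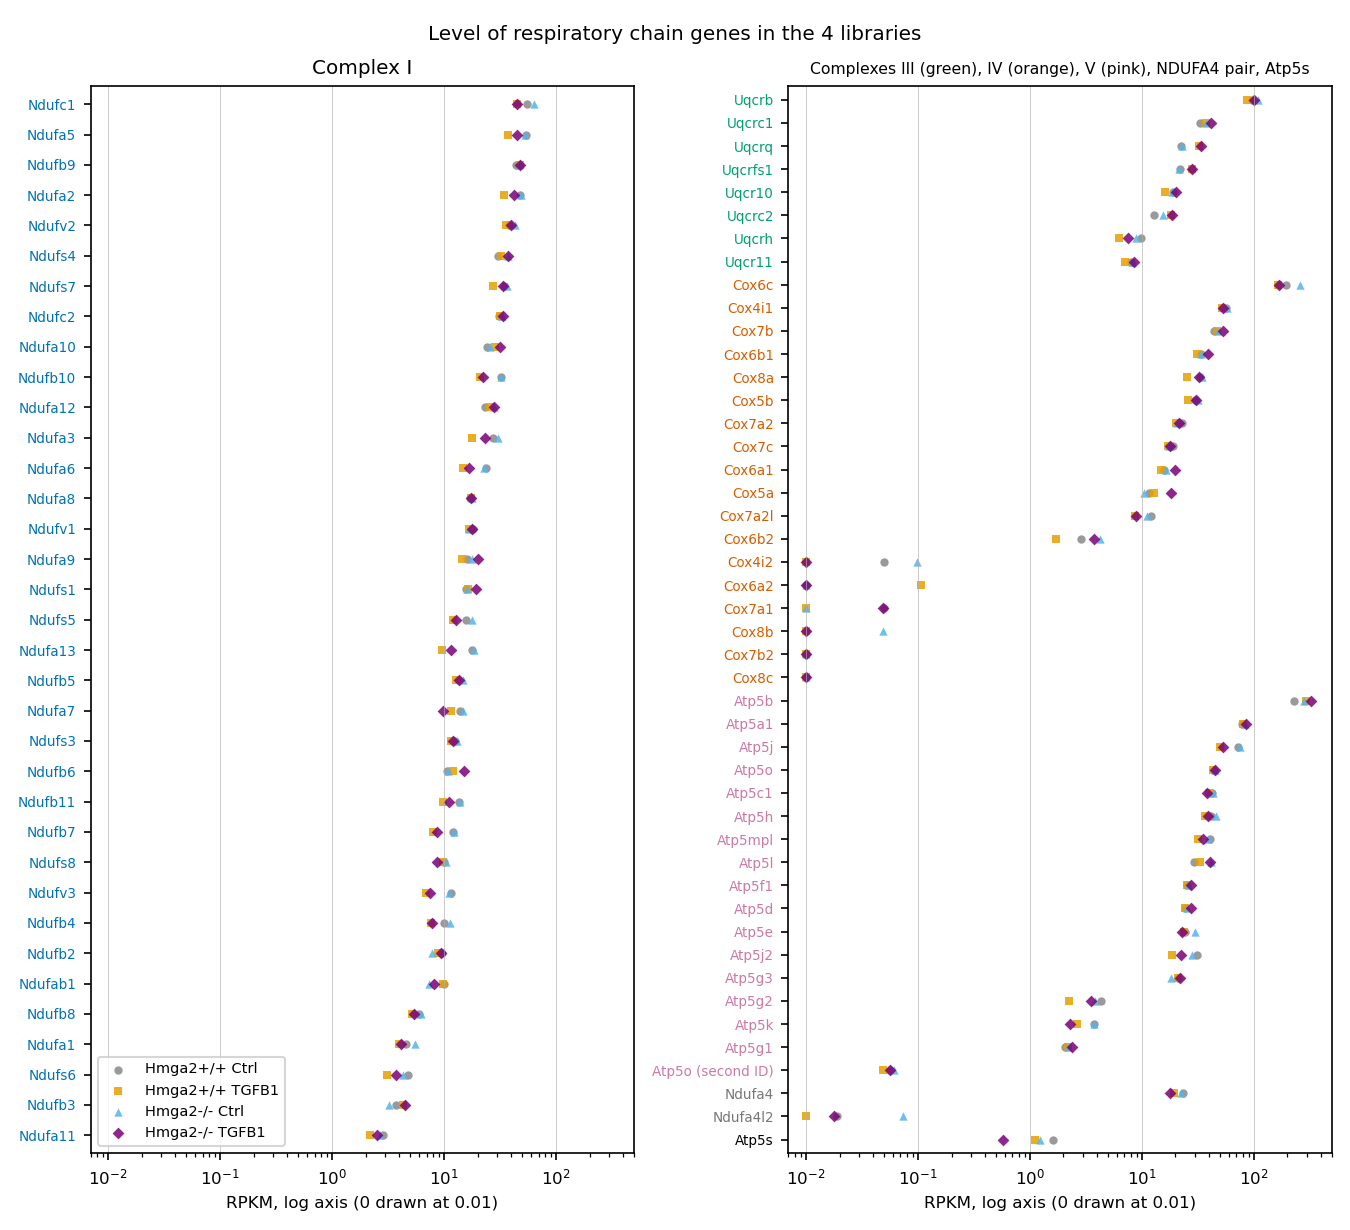
Level of 81 of the 82 members in RPKM (log axis, 0 drawn at 0.01), with 1 point per library and 1 row per gene, ordered by complex and mean level. Most members lie between 2 and 100 RPKM with the 4 libraries close together, and 8 members lie under 1 RPKM in every library.

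Subunits of one complex did not share a level. Among the nuclear core subunits of complex I, which carry the flavin and the iron-sulfur clusters or lie beside them, Ndufs8 was at 8.71 to 10.4 RPKM and Ndufv2 at 35.9 to 43.4 RPKM. Between them were Ndufs3 (11.6 to 13.0 RPKM), Ndufs1 (15.8 to 19.2), Ndufv1 (16.8 to 18.0) and Ndufs7 (27.6 to 36.4). In complex III the core proteins Uqcrc1 and Uqcrc2 were at 33.4 to 41.5 and 12.9 to 18.7 RPKM, and the Rieske iron-sulfur protein Uqcrfs1 at 21.4 to 28.4 RPKM. In the F1 part of ATP synthase, the gamma subunit Atp5c1 was at 38.5 to 43.7, the delta subunit Atp5d at 24.1 to 27.5 and the epsilon subunit Atp5e at 22.7 to 30.1 RPKM. Atp5o, which joins F1 to the membrane part, was at 43.3 to 45.5 RPKM. Its second identifier, ENSMUSG00000116933, was at 0.049 to 0.061 RPKM, and 89.8% of its 50-base windows also occurred in another gene's transcripts.

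Of the isoforms known from lung, muscle or testis, most were at or near 0 beside a widely expressed partner. Cox4i1 was at 52.6 to 57.3 RPKM, while Cox4i2, the form known from lung, had 2, 0, 4 and 0 reads in Hmga2+/+ Ctrl, Hmga2+/+ TGFB1, Hmga2-/- Ctrl and Hmga2-/- TGFB1. Cox6a1 was at 14.9 to 19.9 RPKM, while the muscle form Cox6a2 had 4 reads in Hmga2+/+ TGFB1 and 0 in the other libraries. Cox7a2 was at 20.2 to 22.7 and Cox7a2l, a factor in the joining of complexes III and IV, at 8.65 to 12.2 RPKM, while the muscle form Cox7a1 had at most 1 read. These low values lie at or near 3 reads, the limit that a count of 0 allows, and no fold is given for them.

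The same held for the COX7B and COX8 pairs. Cox7b was at 44.4 to 53.3 RPKM and the testis form Cox7b2 at 0 in all 4 libraries, which allows up to 0.0993 RPKM in Hmga2+/+ Ctrl. Cox8a was at 25.5 to 34.4 RPKM, the muscle form Cox8b had at most 1 read, and the testis form Cox8c was at 0 in all 4 libraries, which allows up to 0.113 RPKM in Hmga2+/+ Ctrl. Ndufa4, now counted with complex IV, was at 23.5, 19.5, 22.3 and 17.8 RPKM in Hmga2+/+ Ctrl, Hmga2+/+ TGFB1, Hmga2-/- Ctrl and Hmga2-/- TGFB1. Its hypoxia-inducible relative Ndufa4l2 had 1, 0, 4 and 1 reads.

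Cox6b2 was the exception among the testis forms. It was at 2.84 RPKM in Hmga2+/+ Ctrl, 1.72 in Hmga2+/+ TGFB1, 4.22 in Hmga2-/- Ctrl and 3.71 in Hmga2-/- TGFB1, on 57 to 138 reads. Its partner Cox6b1 was at 33.8, 31.4, 34.1 and 39.1 RPKM. Both Hmga2-/- libraries were above both Hmga2+/+ libraries for Cox6b2.

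The 3 genes of the ATP synthase c ring encode the same mature peptide with different import sequences, and they were unequal. Atp5g3 was at 18.3 to 22.1 RPKM in the 4 libraries and Atp5g1 at 2.08 to 2.38 RPKM. Atp5g2 was at 4.33 RPKM in Hmga2+/+ Ctrl, 2.24 in Hmga2+/+ TGFB1, 3.79 in Hmga2-/- Ctrl and 3.50 in Hmga2-/- TGFB1, so that the Hmga2+/+ TGFB1 library stood below the other 3.

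The first comparison asked how TGFB1 moved these genes in wild type cells. In Hmga2+/+, 14 of 82 members (17.1%) were lower with TGFB1 by 1.5-fold or more and 1 (1.22%) was higher, beside 19.2% lower and 11.6% higher of all 20815 genes. The share of lower members was thus near the background, and the share of higher members was below it. The 1 higher member was Cox6a2 and 3 of the lower ones were Ndufa4l2, Cox4i2 and Cox7a1, all of which rest on at most 4 reads per library. At 1.2-fold, 29 members were lower (35.4%) and 5 were higher (6.10%), beside 29.4% and 20.1% of all genes. Among those at 1 RPKM or more, 26 of 74 members were lower and 4 were higher, beside 33.2% and 26.0% of genes at that level. The median log2 ratio of the 74 members was -0.15, beside -0.05 for the 10742 genes, and 54 of the 74 (73.0%) lay below 0, beside 54.1%.

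The 11 of 74 expressed members (14.9%) past 1.5-fold were all lower with TGFB1. Of the 10742 genes at 1 RPKM or more, 1803 were lower and 1229 higher by that fold. The largest difference was for Atp5g2 (chr15:102662868-102671047), from 4.33 to 2.24 RPKM, a log2 ratio of -0.95 (95% interval -1.35 to -0.55, on 155 and 82 reads). Of its 50-base windows 38.3% also occur in transcripts of other genes, 2 of them pseudogenes. Ndufa13 (chr8:69894182-69902558), a complex I subunit also known as GRIM-19, was at 18.0 RPKM without and 9.65 with TGFB1 in Hmga2+/+, a log2 ratio of -0.90 (-1.03 to -0.76). Its transcript lies inside 2 annotated genes, and 28.5% of its windows occur elsewhere. Ndufv3, an accessory subunit of the NADH-binding module, followed with 11.6 and 6.88 RPKM and a log2 ratio of -0.75 (-0.90 to -0.61).

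Most of the other lower members encode small accessory subunits. In complex I these were Ndufa6 (log2 ratio -0.69), Ndufb10 (-0.64), Ndufs6 (-0.62), Ndufb7 (-0.61) and Ndufa3 (-0.61). In complex III it was Uqcrh, the hinge protein, from 9.91 to 6.28 RPKM (-0.66). In complex IV it was Cox6b2 (-0.72, -1.22 to -0.23), and in complex V it was Atp5j2, subunit f, from 31.0 to 18.7 RPKM (-0.73, -0.89 to -0.57). No core subunit of complex I was among them. Nor was any gene on the list of main subunits of complexes III to V. That list holds Uqcrc1, Uqcrc2, Uqcrfs1, Cox4i1, Cox5a, Cox5b, Atp5a1, Atp5b, Atp5c1, Atp5d, Atp5e and Atp5o. It leaves out the c ring genes, and so Atp5g2.

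The members that were higher with TGFB1 in Hmga2+/+ were led by complex III. Uqcrq (chr11:53428948-53430831), a small subunit, was at 22.2 and 32.2 RPKM (log2 ratio 0.54, 0.39 to 0.69). Uqcrc2, the second core protein, was at 12.9 and 18.1 RPKM (0.49, 0.39 to 0.59), and Uqcrfs1 at 22.1 and 28.3 RPKM (0.36, 0.26 to 0.45). None of these 3 passed 1.5-fold. Atp5b, with the largest read number of all members, had a log2 ratio of 0.35 (0.33 to 0.38).

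By complex, the median log2 ratio in Hmga2+/+ was -0.18 over the 36 members of complex I, 0.01 over 8 of complex III, -0.16 over 12 of complex IV and -0.04 over 16 of complex V. Within complex I, the 29 supernumerary subunits had a median of -0.25, with 14 lower and 0 higher by 1.2-fold. The 7 core subunits had a median of -0.09, with 1 lower and 0 higher. Of genes at 1 RPKM or more, 33.2% were lower and 26.0% higher by that fold. The summed RPKM of the core subunits was 172 without and 162 with TGFB1, and that of the supernumerary subunits 587 and 497.

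**Figure D2:**
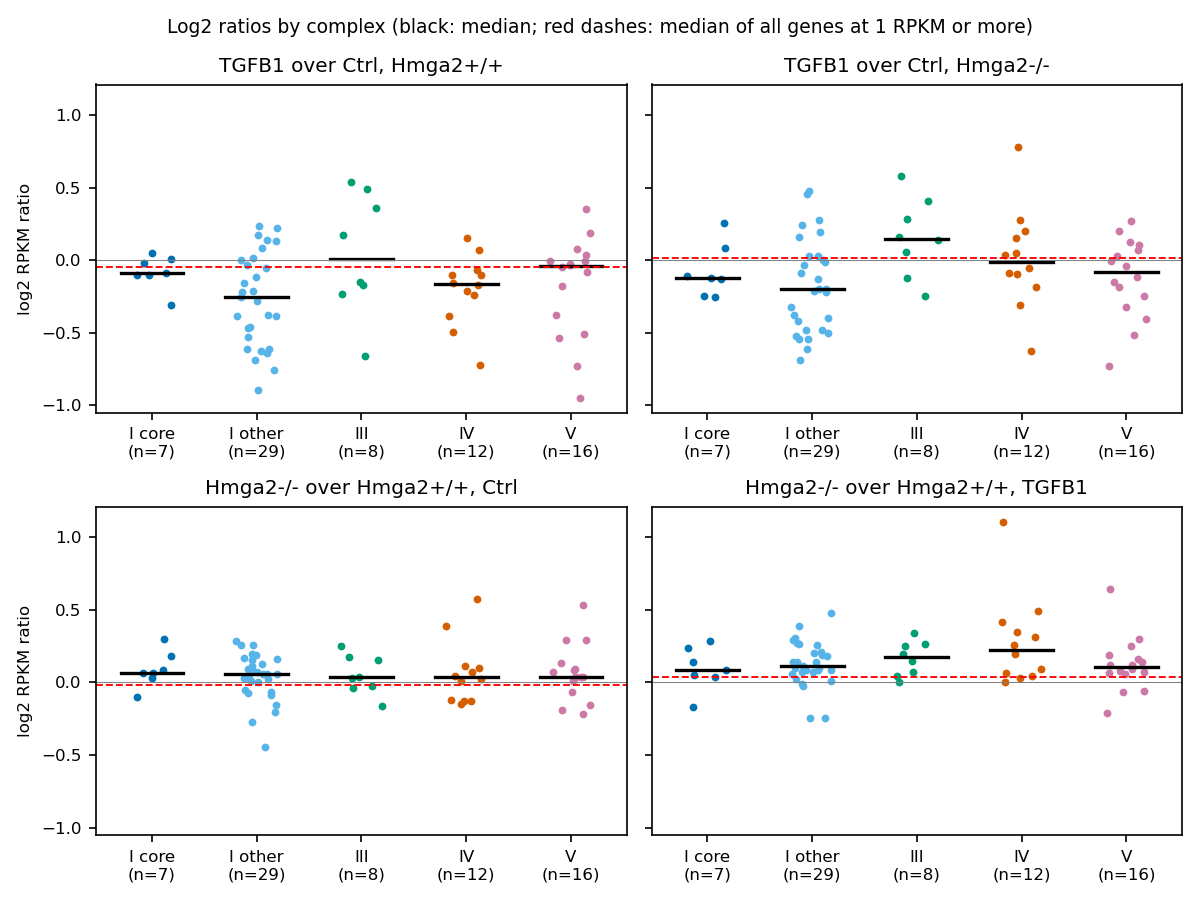
Log2 RPKM ratio of the members of complexes I, III, IV and V at 1 RPKM or more in the 4 comparisons, with complex I split into core and other subunits (Ndufa4 and Atp5s are not drawn). Black lines are medians of the members and red dashes the median of all 10742 genes at 1 RPKM or more. Of the 5 groups drawn, the other complex I subunits have the lowest median with TGFB1 in Hmga2+/+ (-0.25), and complex III the highest (0.01).

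The same comparison in Hmga2-/- cells used libraries that the first did not. There, 8 of 82 members (9.76%) were lower with TGFB1 by 1.5-fold and 2 (2.44%) were higher, beside 18.4% and 13.0% of all genes, so both shares were below the background. Of these, Ndufa4l2, Cox4i2 and Cox8b among the lower and Cox7a1 among the higher rest on at most 4 reads. At 1.2-fold, 23 members were lower (28.0%) and 10 were higher (12.2%), beside 27.4% and 22.5% of all genes. With libraries rescaled by the median ratio these counts were 27 lower and 6 higher, and the share of all genes was not recounted. Among genes at 1 RPKM or more, 20 of 74 members were lower and 9 higher at 1.2-fold, beside 29.6% and 29.5%. At 1.5-fold, 5 of the 74 were lower and 1 was higher, beside 1627 and 1402 of the 10742 genes at that level. The median of the members was -0.10, beside 0.01 for all genes, and 46 of 74 (62.2%) lay below 0, beside 49.1%.

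Cox5a (chr9:57521232-57532426), a subunit on the matrix side of complex IV, was the 1 expressed member higher by 1.5-fold. It was at 10.6 RPKM in Hmga2-/- Ctrl and 18.1 in Hmga2-/- TGFB1, a log2 ratio of 0.78 (0.60 to 0.96). In Hmga2+/+ it was at 11.5 and 12.8 RPKM (0.15, -0.03 to 0.34). The Hmga2-/- TGFB1 library thus stood above the other 3. Of its windows 32.0% occur in other transcripts. Uqcrq again was near the top, with 22.7 and 33.9 RPKM (0.58, 0.43 to 0.73), and Ndufb3, a small membrane-arm subunit, was at 3.23 and 4.48 RPKM (0.47, 0.15 to 0.80).

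Atp5s, a factor related to ATP synthase and not one of its structural subunits, was lower with TGFB1 in Hmga2-/- by 1.10 on the log2 scale: its log2 ratio was -1.10 (-1.61 to -0.61). It was at 1.61 RPKM in Hmga2+/+ Ctrl, 1.11 in Hmga2+/+ TGFB1, 1.25 in Hmga2-/- Ctrl and 0.58 in Hmga2-/- TGFB1, on 52 to 142 reads. With a pseudocount of 1 RPKM the log2 ratio in Hmga2-/- became -0.51. Atp5k, subunit e of ATP synthase, was at 3.78 and 2.28 RPKM (-0.73, -1.36 to -0.12). Ndufa13 was at 18.7 and 11.6 RPKM (-0.69, -0.81 to -0.56), so it was low with TGFB1 in both genotypes.

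Cox6c (chr15:35931976-35938246) had the narrowest interval of the members past 1.5-fold. It was at 257 RPKM in Hmga2-/- Ctrl and 167 in Hmga2-/- TGFB1, a log2 ratio of -0.63 (-0.68 to -0.57). In Hmga2+/+ the ratio was -0.24 (-0.30 to -0.18), and the 2 TGFB1 libraries were at nearly the same level. Ndufa7, a complex I accessory subunit, was at 14.9 and 9.76 RPKM in Hmga2-/- (-0.61, -0.83 to -0.39).

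By complex, the medians in Hmga2-/- were -0.16 for complex I, 0.15 for complex III, -0.01 for complex IV and -0.08 for complex V. Supernumerary subunits of complex I had a median of -0.20. By 1.2-fold, 12 of them were lower and 3 higher, beside 29.6% and 29.5% of genes at 1 RPKM or more. The core subunits had a median of -0.13, and none passed 1.2-fold. Their log2 ratios ran from -0.25 for Ndufs8 to 0.26 for Ndufs1, beside -0.02 and 0.05 for the same genes in Hmga2+/+.

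Across the 74 expressed members, 56 had the same sign of log2 ratio in both genotypes, 41 below 0 and 15 above. This is 75.7% of members, beside 86.2% of the 10742 genes. Over members, Pearson's r between the 2 sets of ratios was 0.72 and Spearman's rho 0.76, beside a Pearson's r of 0.92 over all genes. In Hmga2+/+ the ratios of members ran from -0.95 to 0.54 and those of all genes from -8.54 to 12.0. In Hmga2-/- they ran from -1.10 to 0.78 and from -10.4 to 7.13. The part of this narrower range in the lower r and sign share of members was not tested. These are descriptions across genes, which are not independent replicates, and all points of one axis come from the same 2 libraries. By 1.2-fold, 16 members were lower in both genotypes (21.6%, beside 25.8% of genes) and 3 were higher in both (4.05%, beside 22.3% of genes).

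**Figure D3:**
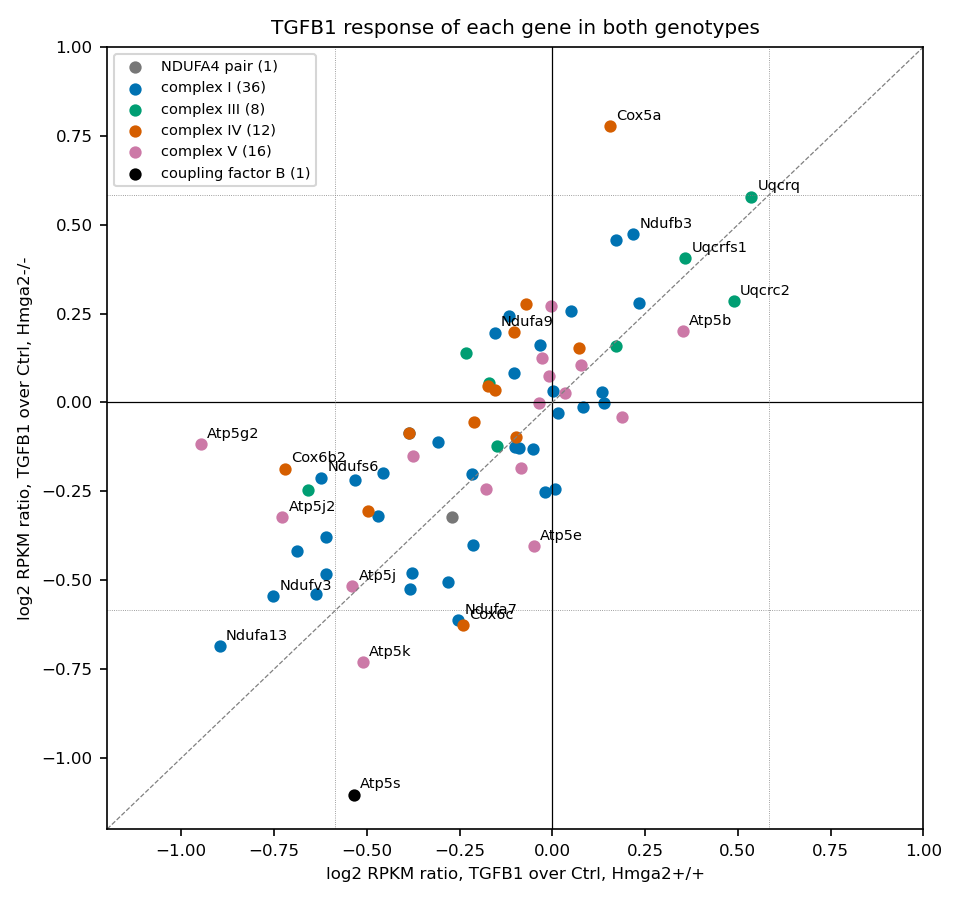
Log2 RPKM ratio of TGFB1 to Ctrl for each of the 74 expressed members in Hmga2+/+ (horizontal) and Hmga2-/- (vertical), coloured by complex. Dotted lines mark 1.5-fold and the dashed line equal ratios. Most members lie in the lower left quadrant (41 of 74), Uqcrq lies at the upper right, and Atp5g2 and Cox5a lie farthest above the dashed line.

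The next comparison was between genotypes without TGFB1. Here 3 of 82 members were higher in Hmga2-/- by 1.5-fold (3.66%) and 1 was lower (1.22%), beside 7.79% and 7.45% of all genes. All 4 were genes with at most 4 reads (Ndufa4l2, Cox4i2 and Cox8b higher, Cox7a1 lower). No expressed member passed 1.5-fold, and few genes did: of the 10742 at 1 RPKM or more, 255 were higher and 176 lower. At 1.2-fold, 10 members were higher (12.2%) and 4 were lower (4.88%), beside 13.2% and 14.1% of all genes. Among genes at 1 RPKM or more, 7 of 74 members were higher and 3 were lower, beside 9.23% and 10.5%. The median log2 ratio of members was 0.04, beside -0.02, and 22 of 74 (29.7%) lay below 0, beside 53.5% of genes.

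The largest values in this comparison belonged to Cox6b2 (log2 ratio 0.57, 0.18 to 0.97), Atp5l and Cox6c (0.39, 0.34 to 0.44). Atp5l, subunit g of ATP synthase, was at 29.0 RPKM in Hmga2+/+ Ctrl and 41.9 in Hmga2-/- Ctrl (0.53, 0.40 to 0.66). Its values are uncertain, since 84.8% of its windows occur in transcripts of other genes, 12 of them pseudogenes. Atp5b was higher in Hmga2-/- Ctrl by 0.29 (0.27 to 0.32) on the log2 scale. The lowest was Ndufab1, the mitochondrial acyl carrier protein, at 9.95 and 7.33 RPKM (-0.44), followed by Atp5s (-0.37, -0.74 to 0.00) and Ndufb2 (-0.27).

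With TGFB1, 4 of 82 members were higher in Hmga2-/- than in Hmga2+/+ by 1.5-fold (4.88%) and 2 were lower (2.44%), beside 8.66% and 7.27% of all genes. Ndufa4l2 and Cox7a1 among the higher and Cox6a2 among the lower rest on at most 4 reads. At 1.2-fold, 18 members were higher (22.0%) and 2 were lower (2.44%), beside 15.6% and 12.4% of all genes. As deposited, the share of higher members was thus above the background and that of lower ones below it. With libraries rescaled by the median ratio these counts were 13 higher and 4 lower. Rescaling also moved the median of genes at 1 RPKM or more from 0.04 to 0.01. The share of all genes past 1.2-fold was not recounted, so the rescaled counts have no background. Among genes at 1 RPKM or more, 16 of 74 members were higher (21.6%) and 1 was lower, beside 12.9% and 8.30%. The median log2 ratio was 0.11, beside 0.04, and 10 of 74 members (13.5%) lay below 0, beside 41.3%.

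The expressed members past 1.5-fold were Cox6b2, Atp5g2 and Atp5s, so 2 of 74 (2.70%) were higher and 1 (1.35%) was lower. Of the 10742 genes at 1 RPKM or more, 335 were higher and 213 lower by that fold. Cox6b2 (chr7:4751792-4753094) was at 1.72 RPKM in Hmga2+/+ TGFB1 and 3.71 in Hmga2-/- TGFB1, a log2 ratio of 1.11 (0.64 to 1.59). Atp5g2 was at 2.24 and 3.50 RPKM (0.64, 0.23 to 1.06). Atp5s was lower, at 1.11 and 0.58 RPKM (-0.94, -1.45 to -0.44). Next among the higher members came Cox5a (0.49, 0.33 to 0.66), and among the lower ones Ndufab1 (-0.25), Ndufa7 (-0.25) and Atp5k (-0.21, -0.88 to 0.46). No log2 ratio lay below 0 in the 8 members of complex III and the 12 expressed ones of complex IV, without Ndufa4 (-0.13). Of genes at 1 RPKM or more, 41.3% lay below 0. The medians of the 2 complexes were 0.17 and 0.22, and their lowest values were 0.006 (Uqcrfs1) and 0.005 (Cox6c). With libraries rescaled by the median ratio, 3 of these 20 lay below 0.

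The difference between the 2 TGFB1 responses (log2 ratio in Hmga2-/- minus that in Hmga2+/+) uses all 4 libraries. Its median was 0.08 over the 74 members, beside 0.05 over all genes, and 48 of the 74 (64.9%) lay above 0, beside 59.4% of all genes. By 1.2-fold or more, 17 members (23.0%) had the higher ratio in Hmga2-/- and 4 (5.41%) the lower one, beside 15.4% and 8.21% of genes. The largest positive differences were 0.83 for Atp5g2, 0.62 for Cox5a and 0.53 for Cox6b2. The largest negative ones among members at 1 RPKM or more in all libraries were -0.38 for Cox6c, -0.36 for Ndufa7 and -0.35 for Atp5e, which was at 24.5, 23.7, 30.1 and 22.7 RPKM in Hmga2+/+ Ctrl, Hmga2+/+ TGFB1, Hmga2-/- Ctrl and Hmga2-/- TGFB1. The values above are as deposited. Rescaling by the median ratio moves each log2 ratio by 0.02 in Hmga2+/+ and by -0.03 in Hmga2-/-, which lowers every difference. With 1 library per condition, none of these differences was tested.

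The medians with TGFB1 were lowest among members with short transcripts. Expressed members had a median length of 680 bases, beside 2929 for all expressed genes. In Hmga2+/+, the 17 members of up to 500 bases had a median log2 ratio of -0.23 and the 15 of over 500 to 600 bases one of -0.39. The 21 members of over 600 to 1000 bases had a median of -0.03 and the 21 longer ones -0.02. All genes in the same length bands had medians of -0.15, -0.17, -0.15 and -0.04. In Hmga2-/- the members' medians were -0.32, -0.21, 0.03 and -0.01, beside -0.17, -0.08, -0.07 and 0.02. Over members, Pearson's r of log2 length with the log2 ratio was 0.28 in Hmga2+/+ and 0.18 in Hmga2-/-, given as a description. The supernumerary subunits are also among the shortest transcripts, and the part of transcript length in their values was not tested.

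**Figure D4:**
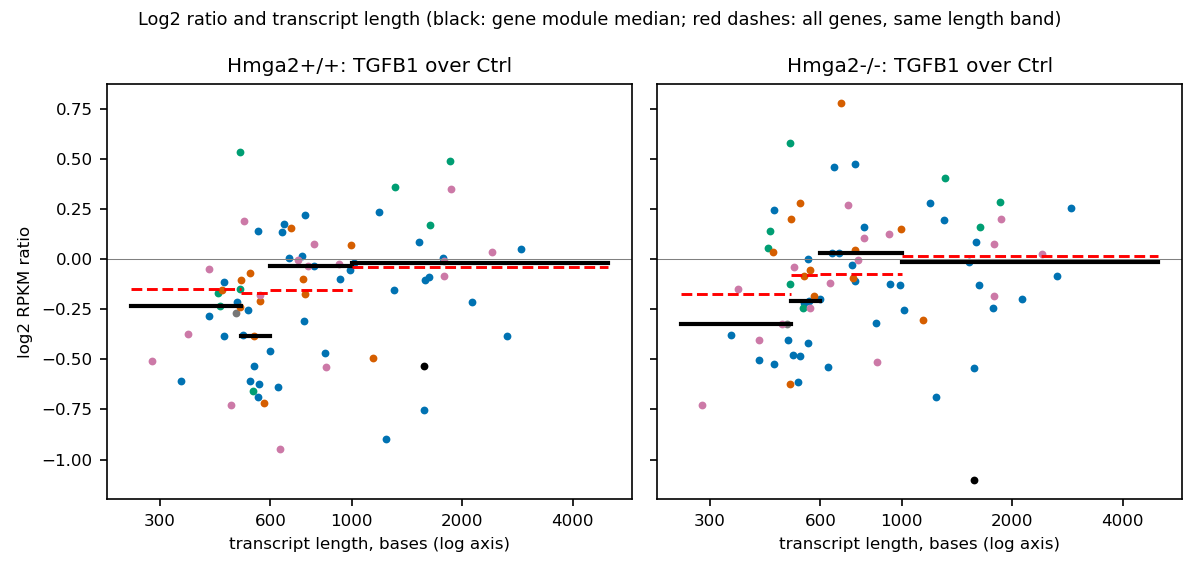
Log2 RPKM ratio of TGFB1 to Ctrl against transcript length (log axis) for the 74 expressed members in each genotype, coloured by complex as in the plot of both responses. Black lines are the members' medians in 4 length bands and red dashes those of all expressed genes. Members up to 600 bases have medians of -0.23 and -0.39 in Hmga2+/+, and both groups lie near 0 above 1000 bases.

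Many of these genes have processed copies in the genome. In 35 of the 82 members no 50-base window of the coding transcripts occurred in a transcript of another gene, and in 57 fewer than 10% did. The median share was 2.75%, and 35 members shared windows with at least 1 annotated pseudogene. Over the members with fewer than 10% shared windows, the median log2 ratio of TGFB1 to Ctrl was -0.16 in Hmga2+/+ and -0.13 in Hmga2-/-. How the authors' counting placed reads that match several genes was not given in the sources used here, and their part in single values was not tested.

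Other genes of the pathway were taken from lists. Complex II (succinate dehydrogenase) had medians of -0.29 and -0.10 over 4 genes with TGFB1 in Hmga2+/+ and Hmga2-/-. The 1 gene past 1.5-fold was Sdhc, a membrane anchor, from 25.5 to 16.4 RPKM in Hmga2+/+ (-0.64), with 26.8 and 18.2 RPKM in Hmga2-/- (-0.56). The electron carrier Cycs (cytochrome c) was at 3.57, 5.75, 3.76 and 7.29 RPKM in Hmga2+/+ Ctrl, Hmga2+/+ TGFB1, Hmga2-/- Ctrl and Hmga2-/- TGFB1, with log2 ratios of 0.69 and 0.95. Cyc1, the cytochrome c1 of complex III that the symbol rule leaves out, was at 12.0, 14.8, 10.9 and 16.6 RPKM (0.30 and 0.60). Both cytochromes were thus higher with TGFB1 in both genotypes.

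Among 18 regulators of mitochondrial biogenesis, 16 were at 1 RPKM or more, with medians of 0.29 and 0.36. In Hmga2+/+, 9 of the 16 were higher and 2 lower by 1.2-fold, beside 26.0% and 33.2% of genes at 1 RPKM or more. In Hmga2-/- 11 were higher and 2 lower, beside 29.5% and 29.6%. Pprc1, a coactivator of the PGC-1 family, was at 9.29 and 15.4 RPKM in Hmga2+/+ and 8.35 and 15.0 in Hmga2-/-. The other members of that family were under 1 RPKM and lower with TGFB1: Ppargc1a was at 0.511 and 0.118 RPKM in Hmga2+/+ and 0.382 and 0.099 in Hmga2-/-, and Ppargc1b had log2 ratios of -0.33 and -0.23. The mitochondrial transcription factor Tfb2m had log2 ratios of 0.59 and 0.67, Gabpb1 of 0.51 and 0.65, and the mitochondrial helicase Twnk of 0.54 and 0.61. Lower were the nuclear receptor Esrrg (-0.75 and -0.74) and the DNA polymerase subunit Polg2 (-0.71 and -0.35). Nrf1 itself was at 9.32, 13.5, 9.70 and 12.6 RPKM in Hmga2+/+ Ctrl, Hmga2+/+ TGFB1, Hmga2-/- Ctrl and Hmga2-/- TGFB1.

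The 77 genes of the mitochondrial ribosome had medians of 0.13 and 0.17. By 1.2-fold, 27 were higher and 10 lower in Hmga2+/+, beside 26.0% and 33.2% of genes at 1 RPKM or more. In Hmga2-/- 31 were higher and 9 lower, beside 29.5% and 29.6%. The 13 genes of the TCA cycle had medians of 0.03 and 0.13, and 41 expressed assembly factors 0.03 and 0.02. Among the 5 mitochondrial genes in the table, mt-Co1, the catalytic subunit of complex IV, was at 3278, 3209, 3349 and 3378 RPKM in Hmga2+/+ Ctrl, Hmga2+/+ TGFB1, Hmga2-/- Ctrl and Hmga2-/- TGFB1. The other mitochondrial gene of complex IV in the table, mt-Co2, was listed at only 2.30, 1.90, 2.08 and 3.52 RPKM. The entry for mt-Atp6 was also low, at 9.11 to 10.3 RPKM, beside 530 to 620 for mt-Nd2 and 428 to 525 for mt-Nd4. Why these entries were so low was not tested, and they may not give the level of the genes. The log2 ratios listed for mt-Co2 were -0.28 in Hmga2+/+ and 0.76 in Hmga2-/-, the latter past 1.5-fold. Both entries are part of the list medians. For mt-Nd4 of complex I the ratios were -0.29 and 0.04, and the list had medians of -0.03 and 0.04. Differences between these lists and the respiratory chain genes were not tested.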

How the data were processed

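Total RNA of MEF in 4 conditions was sequenced from stranded libraries. Per the study's methods, the authors trimmed reads with Trimmomatic, aligned them to mm10 with HISAT2 2.1.0 and quantified UCSC known genes with HOMER on the sense strand. The deposited values are RPKM per transcript, normalized to all mapped reads by the authors. The file header names exon counting and the methods name gene counting. The RPKM table was used as deposited, with no unused sample column (0).

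Of 63759 transcripts, 57708 were named by an overlap of at least 50% with a gene of GENCODE release M21 on their own strand. The members and lists were chosen with earlier results of these data known. Values of 0 were set to 0.001 RPKM. Log2 ratios were taken between libraries with no filter for counts past 1.5-fold and 1.2-fold, and medians used genes at 1 RPKM or more in at least 1 library. Depth was found as the read number at which low RPKM values of transcripts under 600 bases become whole reads (all tested values within 0.1 of a whole number). Intervals are exact conditional binomial (Clopper-Pearson) intervals at 95%, and PCR copies were not removed by molecular identifiers. Windows of 50 bases were searched in the GENCODE transcripts, not in the whole genome, on both strands. The steps were tested on simulated data and used Python 3.11.15, numpy 2.4.6, pandas 2.3.3, scipy 1.17.1 and matplotlib 3.10.9.

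Members named with values were the 10 with the highest mean RPKM, the 3 highest and 3 lowest ratios of each comparison (at 1 RPKM or more in both libraries), all expressed members past 1.5-fold, the isoform families, the core and main subunits, members under 0.1 RPKM in all libraries, and the 3 largest differences between the TGFB1 responses in each direction. From complex II, the cytochromes and the biogenesis regulators, those past 1.5-fold were named. Some items under these rules are not reported here. Further members and list genes in the text (Cox6a2, Ndufa6 and other genes with promoter letters, Atp5j, Cyc1, Nrf1, Ppargc1a, Ppargc1b and mitochondrial genes) were chosen after their values were seen. Alternatives were a pseudocount of 1 or 0.1 RPKM, median-ratio rescaling, at least 10 RPKM, the transcript with the highest mean RPKM, members with under 10% shared windows, a fold of 2 and, chosen after seeing the data, at least 1 RPKM.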

Additional observations from a re-analysis of the deposited data

Results flagged for a closer look

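Ndufa9, an accessory subunit of complex I, was lower with TGFB1 in Hmga2+/+, at 16.2 and 14.6 RPKM (log2 ratio -0.16, 95% interval -0.28 to -0.04), and higher with TGFB1 in Hmga2-/-, at 17.7 and 20.3 RPKM (0.20, 0.09 to 0.30). The log2 ratio in Hmga2-/- minus that in Hmga2+/+ was 0.35. It was the 1 expressed member whose 2 ratios lay on opposite sides of 0 with both counting intervals clear of 0. How many of all genes met this rule was not counted, so it does not set Ndufa9 apart from other genes. The difference was not tested, since there is 1 library per condition.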

How the results depend on the processing

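Of 148 recomputed counts and medians, 104 kept within 1.5 times the reported count or within the binomial interval of the median, and 44 did not. Medians of the members kept their sign in all 28 recomputations. They ranged from -0.16 to -0.10 for TGFB1 in Hmga2+/+, from -0.13 to -0.09 for TGFB1 in Hmga2-/-, from 0.03 to 0.06 for genotype in Ctrl and from 0.08 to 0.12 for genotype in TGFB1, where rescaling gave 0.0831 and left the interval. Counts are given as Hmga2+/+ response, Hmga2-/- response, genotype in Ctrl and genotype in TGFB1. No share of all genes stands beside these counts, so they do not compare members with other genes. With a pseudocount of 1 RPKM, members lower by 1.5-fold numbered 6, 2, 0 and 0 and members higher numbered 0, 1, 0 and 1, and 1.2-fold lower counts by genotype were 1 and 1. With a pseudocount of 0.1 RPKM, higher counts at 1.5-fold were 1, 0 and 2 in the last 3 comparisons. With at least 10 RPKM (60 members), lower counts at 1.5-fold were 7, 3, 0 and 0 and higher counts 0, 1, 0 and 0. At 1.2-fold that filter gave 19 lower in the Hmga2+/+ response, 6 higher and 0 lower for genotype in Ctrl, and 0 lower for genotype in TGFB1. With at least 1 RPKM (74 members, added after seeing the data), higher counts at 1.5-fold were 0, 1, 0 and 2, lower counts in the last 3 comparisons were 5, 0 and 1, and 1 was lower by 1.2-fold for genotype in TGFB1. At 2-fold, 3 members were lower in the Hmga2+/+ response, 1 was higher and 4 were lower in the Hmga2-/- response, and 1 was lower for genotype in TGFB1. Rescaled libraries gave 6 members higher by 1.2-fold in the Hmga2-/- response and 4 lower for genotype in TGFB1. With the highest transcript, 5 members were higher by 1.5-fold for genotype in Ctrl. With few shared windows (57 members), 1 was higher by 1.5-fold and 6 by 1.2-fold in the Hmga2-/- response, and 11 by 1.2-fold for genotype in TGFB1. The filters count over fewer members, and a pseudocount shrinks ratios of low genes. Other causes were not tested.

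Of 832 recomputed ratios of single named members, 824 stayed within their counting interval, 8 did not and 0 turned a called direction. Those of Atp5l with its highest transcript moved from -0.04 to -0.34 in the Hmga2-/- response, from 0.53 to 0.69 for genotype in Ctrl and from 0.30 to 0.16 for genotype in TGFB1. No paired analysis was possible because each condition has 1 library. Intervals limit counting error only, and members under 1 RPKM rest on too few reads for a ratio.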
